A study of Mus musculus with 8 samples.

Results

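Malat1, Neat1, Gas5, Snhg1, Snhg12, Mir22hg, Mir17hg and Dnm3os are long non-coding RNA (lncRNA) genes of mouse fibro/adipogenic progenitors (FAPs), the mesenchymal cells of skeletal muscle that can form fibroblasts and adipocytes. The 8 genes were chosen by symbol from 37991 genes in the deposited tables, as abundant lncRNAs whose values in these libraries were already known. Of these, 7 were found and analysed, all 7 passed the filter on low values, and Snhg1 was not analysed here. Per the labels, the mice were of mixed background, and FAPs were purified from tibialis anterior muscle on day 3 after glycerol injury. The FAP-ctrl group (n = 5) came from wild type muscle. The FAP-no cilia group (n = 3) came from cells whose primary cilia had been removed by conditional deletion of a floxed Ift88 allele, and all libraries shared the injury and the time point. No source used here gives the driver of the deletion, the age of the mice or whether 1 library is 1 animal.

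These transcripts do their work, as far as it is known, as RNA. Malat1 is kept in nuclear speckles, where splicing factors gather, and Neat1 is the RNA scaffold of paraspeckles, nuclear bodies that hold RNA-binding proteins. Gas5, Snhg1 and Snhg12 are spliced host transcripts whose introns carry small nucleolar RNAs (snoRNAs), the guides of ribosomal RNA modification, and the spliced host RNA is a target of nonsense-mediated decay. Mir22hg, Mir17hg and Dnm3os are the primary transcripts of microRNAs (miRNAs), short RNAs that pair through a seed near their 5′ end with target messages. Dnm3os lies within Dnm3 on the opposite strand and is known from the mesenchyme of the embryo.

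The miRNAs encoded in the 3 host transcripts are printed here because they are the reason these hosts are studied, and they group by seed. All are mature sequences of RefSeq (GRCm38.p6), 5′ to 3′, with the seed, bases 2 to 8, in capitals. Mir22hg on chromosome 11 carries 1 miRNA gene, whose 3′ arm has a seed that no other of the 1679 mature mouse miRNAs in that table has.
miR-22-3p: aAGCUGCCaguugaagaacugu

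Mir17hg on chromosome 14 carries the miR-17 to miR-92a cluster of 6 miRNA genes, which belong to several seed families. miR-17-5p and miR-20a-5p share a seed that 7 mature miRNAs of the table have. miR-19a-3p and miR-19b-3p share another seed, while miR-18a-5p and miR-92a-3p each have a seed that no other sequence shown here has.
miR-17-5p: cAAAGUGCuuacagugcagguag
miR-20a-5p: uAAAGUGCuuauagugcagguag
miR-18a-5p: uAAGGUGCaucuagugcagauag
miR-19a-3p: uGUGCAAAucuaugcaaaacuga
miR-19b-3p: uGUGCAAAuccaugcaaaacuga
miR-92a-3p: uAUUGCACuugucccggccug

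Dnm3os on chromosome 1 carries miR-199a and miR-214, which have 3 different seeds in their arms shown here.
miR-199a-5p: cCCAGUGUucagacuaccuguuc
miR-199a-3p: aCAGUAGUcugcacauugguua
miR-214-3p: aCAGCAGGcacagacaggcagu

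Reads were hardly ever counted for the small RNAs themselves. GENCODE places 32 small RNA genes inside the 8 listed genes, 30 of them have a row in the deposited tables, and 29 of these are listed at 0 in all 8 libraries, among them all 9 miRNA genes. The exception was Snora16a, a snoRNA gene within Snhg12, with normalized values of 14.6, 4.29, 4.66, 5.21 and 17.3 in FAP-ctrl, against 0, 1.79 and 10.5 in FAP-no cilia, from 71 reads in all. The values below are therefore of the host RNAs, and how the authors' counting treated a read that lies in both a host and its small RNA gene is a step that no source used here states.

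Malat1 and Neat1 are neighbours on chromosome 19 and end alike. Malat1 (GRCm38 chr19:5795690-5802672, minus strand) and Neat1 (chr19:5824708-5845478, minus strand) lie 22035 bases apart. Neither long transcript ends in a poly(A) tail added in the usual way: each is known to be cut by RNase P, and a stretch of A next to U-rich stretches folds into a triple helix that protects the end. The last 70 bases up to the end of that A-rich stretch are shown to let the ends be compared, with the A-rich stretch in capitals. It was found by searching the last 400 bases of each transcript for AAAGCAAAA on the transcript's own strand. The shown stretches are chr19:5795982-5796051 for Malat1 and chr19:5824708-5824777 for Neat1.
Malat1: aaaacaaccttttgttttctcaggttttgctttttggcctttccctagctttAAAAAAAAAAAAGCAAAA
Neat1: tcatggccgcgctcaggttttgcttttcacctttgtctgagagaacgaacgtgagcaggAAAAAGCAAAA

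The Malat1 stretch stops 292 bases before the annotated end of its transcript, and the Neat1 stretch is the annotated end itself. Of 122312 GENCODE transcripts with at least 400 bases, 970 (0.793%) hold AAAGCAAAA in their last 400 bases. Both genes thus share a letter match at the 3′ end, and their values over the libraries are compared further on.

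The starts of 3 members are shown for the motifs they hold, as 90 bases of the RefSeq promoter windows (GRCm38.p6, plus strand, 70 before to 20 from the start) with the match in capitals. TATATA, searched on both strands, was found in 1 of the 2 windows of Gas5 (chr1:161035096-161035185) and Snhg12 (chr4:132308608-132308697), and 5.67% of all 32851 windows of 300 bases hold it. A CArG box, the motif of serum response factor, was found in Dnm3os (chr1:162217553-162217642), and 1.63% of all windows hold one on either strand. A further search on both strands, for CACGTG, had no match in the windows of the members, and 7.15% of all windows hold it. The matches of the first 2 searches do not overlap in these windows, and a match is a description of the letters only.
Gas5: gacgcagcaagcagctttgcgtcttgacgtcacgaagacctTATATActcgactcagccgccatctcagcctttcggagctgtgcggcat
Snhg12: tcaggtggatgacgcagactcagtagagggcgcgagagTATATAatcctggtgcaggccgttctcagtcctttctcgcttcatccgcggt
Dnm3os: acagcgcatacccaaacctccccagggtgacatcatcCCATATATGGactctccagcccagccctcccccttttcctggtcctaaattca

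The libraries held 15313116 to 43895163 gene reads. Ift88, the gene with the floxed allele, had normalized values of 457 to 594 in FAP-ctrl, against 195 to 322 in FAP-no cilia, with no overlap. By Xist and Y-linked genes, FAP-ctrl 1 and 2 and all 3 FAP-no cilia libraries were male and FAP-ctrl 3, 4 and 5 female, so sex and genotype are partly confounded. Mitochondrial genes held 1.81% of the values of FAP-ctrl 5 and 1.25% of those of FAP-no cilia 3, against 3.10% to 3.85% in the other 6 libraries, so both libraries stand apart, and results that rest on them are given with and without them. All 10 FAP markers passed the filter, with a summed value of 736210 to 971152 in FAP-ctrl, against 830826 to 956757 in FAP-no cilia. The 15 macrophage markers summed to 757 to 3410 and 1800 to 6009, the 10 endothelial markers to 631 to 1043 and 761 to 1843, and the 13 muscle markers to 649 to 1166 and 621 to 733, with no marker at 0 in all libraries. In FAP-no cilia, 14 of the 15 macrophage markers were higher (median log2 difference 0.94), as were 8 of 9 tested endothelial markers (0.37). Of 6 tested muscle markers, 5 were lower (-0.89). None of these markers passed by limma-trend. In such bulk libraries, fewer cells of a type and less RNA per cell cannot be told apart, and the part of other cells in the results below was not tested.

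The other analysed members lie on chromosomes 1, 4, 11 and 14, with coordinates of GRCm38 from GENCODE, all on the plus strand. Gas5 (ENSMUSG00000053332, chr1:161034422-161038539) is annotated with 25 transcripts and 3760 exon bases. Dnm3os (ENSMUSG00000078190, chr1:162217623-162225550) is annotated as antisense, and its 7928 exon bases fill its whole span. Snhg12 (ENSMUSG00000086290) spans chr4:132308623-132311024, Mir22hg (ENSMUSG00000085148) spans chr11:75461539-75466676 and Mir17hg (ENSMUSG00000089726) spans chr14:115042879-115046727. Malat1 is ENSMUSG00000092341 and Neat1 is ENSMUSG00000092274 in the tables, and both are annotated without introns in their longest transcript.

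The members were chosen as abundant with these values known, and no cutoff for the word is given, so their levels are a description. They ran from the percentile 95.1 of all genes for Malat1 to 39.6 for Mir17hg. Levels between genes were compared as the normalized read count per kilobase of annotated exon, with the rank among 14266 genes and among 536 lncRNAs past the filter. The order from the top was Malat1, Gas5, Mir22hg, Dnm3os, Snhg12, Neat1 and Mir17hg, and it depended on the length used. Per kilobase of the longest transcript, Gas5 (1907) was above Malat1 (1661). Per kilobase of gene span, Mir22hg (225) was below Dnm3os (463).

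Malat1 stood at 1661 ± 1064 per kilobase (SD, n = 8), rank 5 of the lncRNAs and 694 of all genes. Gas5 followed at 1296 ± 81.4 per kilobase (SD, n = 8), and as Malat1 was above it in 4 of 8 libraries only, the order of these neighbours is not set by the data. Mir22hg stood at 601 ± 129 per kilobase and was below Gas5 in all 8 libraries. Dnm3os stood at 463 ± 302 per kilobase, below Mir22hg in 6 of 8 libraries. Snhg12 stood at 206 ± 27.0 per kilobase, below Dnm3os in 6 of 8 libraries. Neat1 stood at 96.9 ± 98.4 per kilobase, rank 49 of the lncRNAs, at the percentile 48.6 of all genes. Mir17hg was the lowest at 62.6 ± 36.7 per kilobase, rank 75 of the lncRNAs, at the percentile 39.6 of all genes. Neat1 has 4 annotated transcripts that differ in length, and the reads of its short and long isoforms, which share their 5′ part, were not told apart. Its level per kilobase is over all 20771 exon bases. Reads of the short isoform are thus divided by the full length, which lowers the level and the rank of Neat1 by an amount not measured here.

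**Figure D1:**
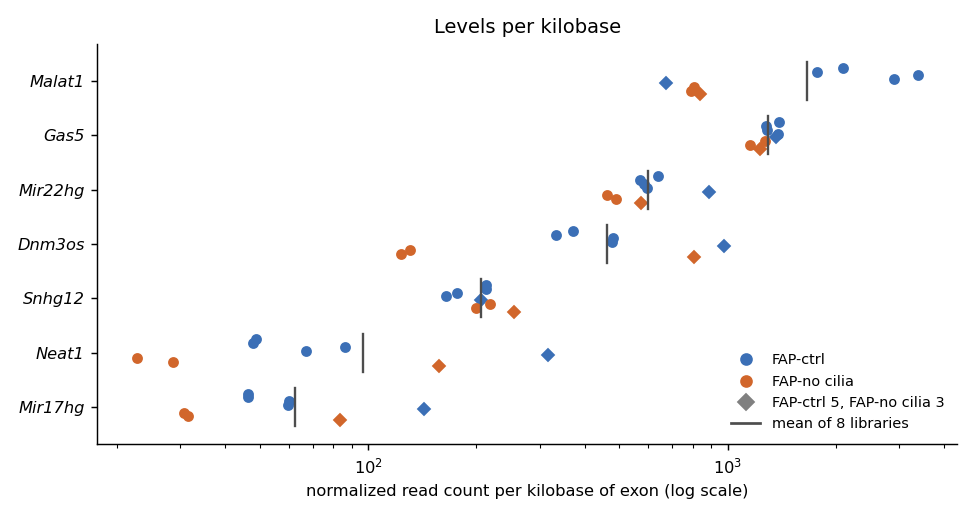
Normalized read count per kilobase of annotated exon (x axis, log scale) of the 7 members, 1 point for each library, with the mean of the 8 libraries as a vertical line. Malat1 and Gas5 are at the top with overlapping points, and the points of Gas5 and Snhg12 are the closest together.

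The members differed widely in their spread over libraries. The highest library held 14.0 times the lowest for Neat1, 7.96 times for Dnm3os, 5.03 times for Malat1 and 4.65 times for Mir17hg. The same ratio was 1.92 for Mir22hg, 1.54 for Snhg12 and 1.21 for Gas5. Ranked by the SD of log2(value + 1) over the 8 libraries among genes with a mean of at least 100, Neat1 was above 99.5% of the genes, Dnm3os above 99.3%, Malat1 above 99.0% and Mir17hg above 98.1%. Gas5 was above 9.21% only, so the list holds both some of the most and some of the least variable transcripts of these libraries.

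**Figure D2:**
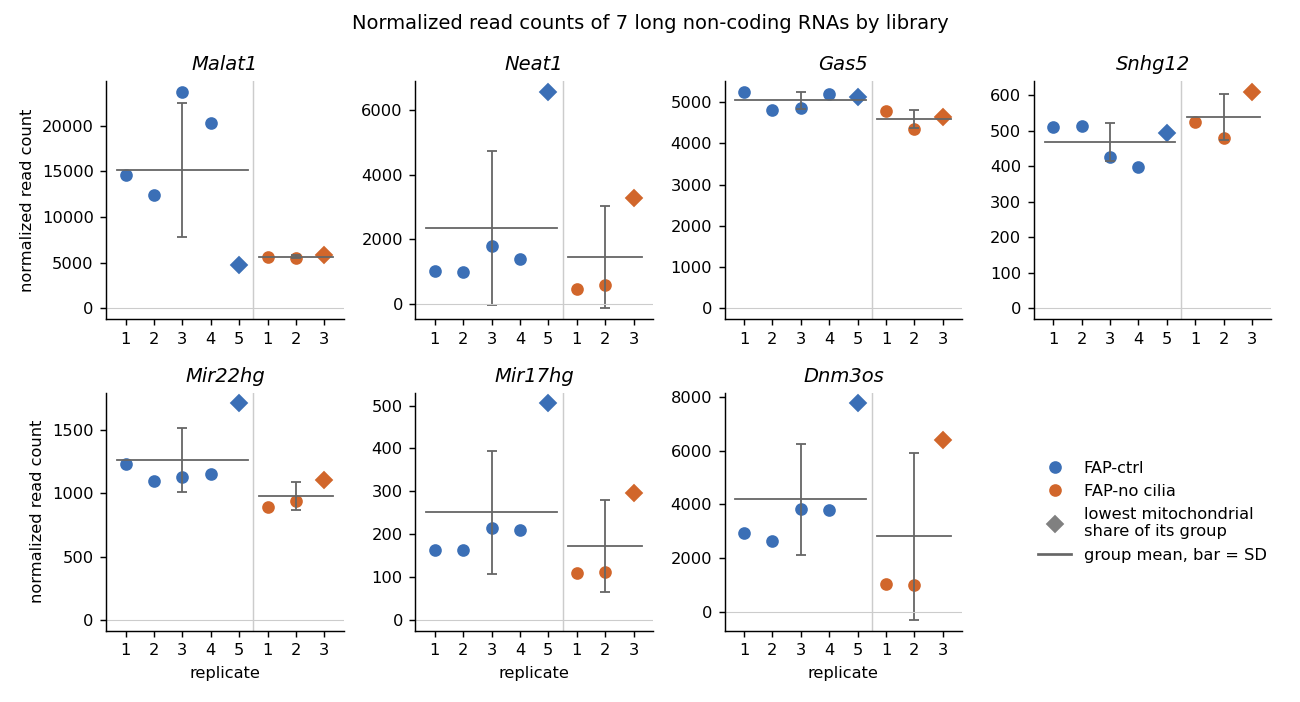
Normalized read counts of the 7 members by library (y axis from 0), with each group's mean as a line and its SD as a bar; diamonds mark FAP-ctrl 5 and FAP-no cilia 3, the libraries with the lowest mitochondrial share of their groups. Malat1 lies between 4715 and 5837 in FAP-ctrl 5 and the FAP-no cilia libraries, whereas Neat1, Mir17hg and Dnm3os are highest in FAP-ctrl 5.

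Malat1, the speckle RNA, was at a like low level in all FAP-no cilia libraries and in 1 FAP-ctrl library. Its normalized values were 14608.5, 12408, 23728, 20346 and 4715 in FAP-ctrl, against 5637, 5520 and 5837 in FAP-no cilia. FAP-ctrl 1 to 4 were at least as high as 12408, while FAP-ctrl 5 was below every FAP-no cilia library, so the groups overlap. FAP-ctrl had a mean of 15161 ± 7370 (SD, n = 5) and FAP-no cilia one of 5665 ± 161 (SD, n = 3). The log2 difference, FAP-no cilia minus FAP-ctrl on the log2(value + 1) scale, was -1.23 ± 0.42 (SE) and did not pass by limma-trend with Benjamini-Hochberg adjustment over all genes (adjusted p = 0.345).

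With male libraries alone Malat1 passed, and it was the only gene of all tested that did. The 2 male FAP-ctrl libraries, 1 and 2, were both above the 3 FAP-no cilia libraries, and the log2 difference was -1.25 ± 0.11 (SE, limma-trend adjusted p = 0.0339), where 0.00707% of all genes were called. With sex as a covariate over all 8 libraries, the female libraries only set the sex term, as no FAP-no cilia library was female. The difference was therefore bound to equal that of the male libraries, -1.25, here with an SE of 0.55 (limma-trend adjusted p = 0.852). Within FAP-ctrl, female libraries 3 and 4 had the highest Malat1 values and female library 5 the lowest. Without FAP-ctrl 5 and FAP-no cilia 3 the difference was -1.62 ± 0.24 (SE) and did not pass (adjusted p = 0.0849 by limma-trend).

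Neat1, the scaffold of paraspeckles, was highest in FAP-ctrl 5 and FAP-no cilia 3. It stood at 1012, 990, 1790, 1398 and 6568 in FAP-ctrl, against 470, 593 and 3277 in FAP-no cilia. FAP-ctrl 5 was 5.06 times the mean of FAP-ctrl 1 to 4, and FAP-no cilia 3 was 6.16 times the mean of FAP-no cilia 1 and 2. FAP-ctrl had a mean of 2352 ± 2380 (SD, n = 5) and FAP-no cilia one of 1447 ± 1586 (SD, n = 3). The log2 difference was -0.85 ± 0.72 (SE), which limma-trend did not call (adjusted p = 0.704). Without these 2 libraries the remaining groups did not overlap and the difference was -1.25 ± 0.24 (SE, adjusted p = 0.112). In the male libraries it was -0.044 ± 0.69 (SE), and without FAP-no cilia 3 alone it was -1.73, so its size rested on which libraries were compared.

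Gas5 was the steadiest member. This snoRNA host, whose introns carry 9 of the snoRNA genes in the tables, stood at 5244, 4798, 4850, 5197 and 5130 in FAP-ctrl, against 4786, 4344 and 4643 in FAP-no cilia. It was the only 1 of the 7 members whose groups did not overlap over all 8 libraries, by the margin between 4798 and 4786. Over all genes, 3.69% did not overlap in this direction. FAP-ctrl averaged 5044 ± 206 (SD, n = 5) and FAP-no cilia 4591 ± 225 (SD, n = 3), with a log2 difference of -0.14 ± 0.07 (SE) that limma-trend did not call (adjusted p = 0.536).

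Snhg12 was the only member higher on average in FAP-no cilia. It stood at 511, 512, 425, 397 and 494 in FAP-ctrl, against 525, 480 and 609 in FAP-no cilia, and the groups overlapped. Its log2 difference was 0.20 ± 0.12 (SE) and did not pass (limma-trend adjusted p = 0.588). It was 0.066 in the male libraries and 0.11 without FAP-no cilia 3. FAP-ctrl 3 and 4 held its lowest values and the highest of Malat1. Trnau1ap, the neighbour of Snhg12, encodes a protein of selenocysteine insertion and had overlapping groups, at 405 to 453 in FAP-ctrl, against 426 to 496 in FAP-no cilia. Zbtb37, a zinc finger gene next to Gas5, stood at 214 to 312 in FAP-ctrl, against 186 to 231 in FAP-no cilia, and did not pass (limma-trend adjusted p = 0.481).

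Within each group, the miRNA hosts were highest in the library with the highest Neat1. Mir22hg, the primary transcript of the miR-22-3p printed above, stood at 1233, 1095, 1129, 1149 and 1707 in FAP-ctrl, against 889, 941 and 1103 in FAP-no cilia. FAP-ctrl 5 was again the highest, and FAP-no cilia 3 reached the lower part of the FAP-ctrl range. Its log2 difference was -0.35 ± 0.15 (SE) and did not pass (limma-trend adjusted p = 0.426). Without FAP-ctrl 5 and FAP-no cilia 3 it was -0.33 ± 0.09 (SE, limma-trend adjusted p = 0.214). Tlcd2, a gene on the same strand that shares 206 of the 1924 exon bases of Mir22hg, stood at 1168 to 1389 in FAP-ctrl, against 1133 to 1232 in FAP-no cilia, and reads of the shared bases may be counted for either or neither.

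Mir17hg, the host of the cluster with the miR-17 and miR-19 seeds, stood at 163, 164, 213, 211 and 505 in FAP-ctrl, against 108, 111 and 296 in FAP-no cilia. FAP-ctrl 5 was 2.69 times the mean of FAP-ctrl 1 to 4 and FAP-no cilia 3 was 2.70 times the mean of the other 2 libraries of its group. The log2 difference was -0.57 ± 0.42 (SE) over all libraries (limma-trend adjusted p = 0.657) and -0.76 ± 0.19 (SE) without those 2 libraries (adjusted p = 0.182). In the male libraries it was -0.097 ± 0.41 (SE), and with 1 library left out it ran from -0.28 without FAP-ctrl 5 to -1.04 without FAP-no cilia 3.

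Dnm3os, the host of miR-199a and miR-214, stood at 2939, 2640, 3816, 3777 and 7774 in FAP-ctrl, against 1033, 977 and 6414 in FAP-no cilia. FAP-no cilia 3 was above FAP-ctrl 1 to 4, while FAP-no cilia 1 and 2 were below every FAP-ctrl library. FAP-ctrl averaged 4189 ± 2069 (SD, n = 5) and FAP-no cilia 2808 ± 3123 (SD, n = 3), with a log2 difference of -1.05 ± 0.58 (SE) that limma-trend did not call (adjusted p = 0.542). Without FAP-ctrl 5 and FAP-no cilia 3, the mean of Dnm3os was 3293 ± 594 (SD, n = 4) for FAP-ctrl, 3.28 times the mean of 1005 of the 2 FAP-no cilia libraries, and Dnm3os passed, the log2 difference being -1.69 ± 0.16 (SE; adjusted p = 0.0346 by limma-trend). It was 1 of 5 genes called there, or 0.0347% of 14425 tested. The 2 libraries that this leaves out had 7774 and 6414, a ratio of 1.21. In the male libraries, which keep FAP-no cilia 3, the log2 difference was -0.58 ± 0.70 (SE, limma-trend adjusted p = 0.858). With only FAP-no cilia 1 or 2 left out it was -0.63 or -0.59, and with only FAP-no cilia 3 left out -1.95.

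Dnm3, a dynamin gene that runs through the Dnm3os locus on the other strand, spanned less than Dnm3os. It stood at 148, 129, 145, 178 and 151 in FAP-ctrl, against 111, 131 and 156 in FAP-no cilia, and its groups overlapped. Within FAP-no cilia, library 3 was the highest for both genes. For Dnm3os, FAP-ctrl 5 was 2.36 times the mean of FAP-ctrl 1 to 4, whereas its Dnm3 value of 151 lay within the range of the other FAP-ctrl libraries. Of the 4 genes fixed as neighbours and regulators of Dnm3os (Dnm3 with the mesenchymal factors Twist1, Twist2 and Prrx1), 3 were higher and 1 lower in FAP-no cilia and 0 passed by limma-trend. Twist1, a factor known to drive Dnm3os in the embryo, stood at 966 to 1232 in FAP-ctrl, against 1047 to 1249 in FAP-no cilia.

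Over all 8 libraries, 0 of the 7 members passed by limma-trend, where 0.00677% of 14768 genes did. Ift88, the gene of the deletion, did not pass in this test either (log2 difference -1.14, limma-trend adjusted p = 0.0895). At an unadjusted p under 0.05 by limma-trend were 2 of the members, Malat1 and Mir22hg, as were 10.8% of all genes. Further, edgeR, limma-voom and DESeq2 called 0 members as well. DESeq2 gave no adjusted p for Dnm3os and called 1.17% of all genes. Of the 7 members, 6 were lower on average in FAP-no cilia. A lower average was common among lncRNAs in general: 410 of 536 tested lncRNA genes were lower (76.5%), against 48.5% of all genes tested. Without FAP-ctrl 5 and FAP-no cilia 3, 6 of the 7 members were lower in FAP-no cilia with no overlap, all but Snhg12, where 12.1% of all genes and 30.7% of the lncRNAs were. With low mitochondrial share as a model term, 0 members passed by limma-trend, where 0.108% of all genes did. The limma-trend adjusted p-values were 0.0628 for Neat1, 0.0767 for Mir17hg and for Dnm3os, 0.0899 for Mir22hg and 0.194 or more for the others.

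**Figure D3:**
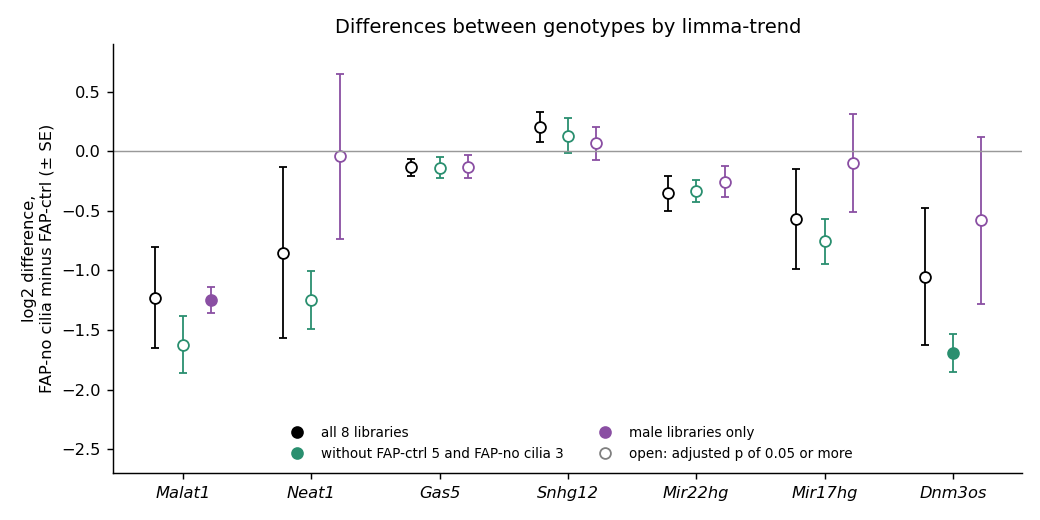
Log2 differences between FAP-no cilia and FAP-ctrl (y axis, ± SE of the limma-trend fit) of the 7 members with all 8 libraries, without FAP-ctrl 5 and FAP-no cilia 3, and with male libraries only. Filled points have an adjusted p under 0.05; these are Malat1 in the male libraries and Dnm3os without the 2 low-mitochondrial libraries.

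High Neat1, Mir17hg and Dnm3os came with a low mitochondrial share in both groups. FAP-ctrl 5, at a mitochondrial share of 1.81%, and FAP-no cilia 3, at 1.25%, held the highest values of Neat1, Mir17hg, Mir22hg and Dnm3os within their groups. Of all genes tested, 11.9% were highest in both of these libraries within their groups, and 15.7% of the lncRNAs were. Malat1 did not do so, as it was lowest in FAP-ctrl 5 and at 5837 in FAP-no cilia 3. Between these 2 libraries Mir17hg was 1.71 times and Mir22hg 1.55 times as high in FAP-ctrl 5. The part of the mitochondrial share, or of what it stands for, in these values was not tested.

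**Figure D4:**
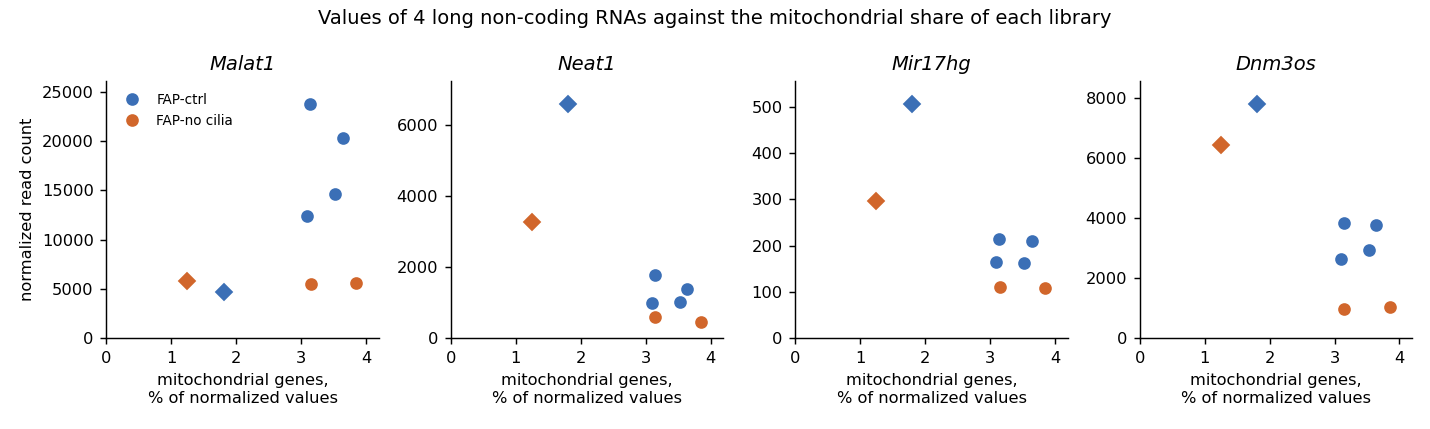
Normalized read counts of Malat1, Neat1, Mir17hg and Dnm3os (y axes from 0) against the share of mitochondrial genes in each library (x axis, % of normalized values), 1 point per library. The libraries at 1.25% and 1.81% hold the highest Neat1, Mir17hg and Dnm3os values, and low Malat1 values are found at both ends of the axis.

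Neat1, Mir17hg and Dnm3os varied together over the libraries. Correlations of log2(value + 1) were computed for 21 pairs of members, with exact two-sided permutation p-values adjusted by Benjamini-Hochberg over the 21 pairs, and they describe pairs chosen with these data known. Neat1 and Mir17hg had the highest, with Pearson r = 0.993 over 8 libraries (exact permutation p adjusted over pairs 0.00104) and rho = 0.976 (adjusted p = 0.00417, exact permutation test). Neat1 and Dnm3os had r = 0.943 and rho = 0.976, and Mir17hg and Dnm3os r = 0.944 and rho = 0.952. In all, 6 pairs passed over 8 libraries by r, and they are the 6 pairs among Neat1, Mir22hg, Mir17hg and Dnm3os. For this count and those below, the share over pairs of other genes is not given here. The counts therefore do not show that the members vary together more than other genes do.

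As FAP-ctrl 5 and FAP-no cilia 3 stand apart, the same values were computed in the other 6 libraries. There Neat1 and Mir17hg still had r = 0.982, Neat1 and Dnm3os 0.952 and Mir17hg and Dnm3os 0.981. Malat1 was not related to Neat1 over 8 libraries (r = -0.119, rho = 0.071, exact permutation p = 0.777), and in the 6 it had r = 0.980 with Neat1, 0.993 with Mir17hg and 0.988 with Dnm3os. Again 6 pairs passed in these 6 libraries, now the pairs among Malat1, Neat1, Mir17hg and Dnm3os. These 6 libraries are 4 FAP-ctrl and 2 FAP-no cilia libraries, and the difference between genotypes is part of each r. As deviations from the group means over 8 libraries, Neat1 and Mir17hg had r = 0.994 and Neat1 and Dnm3os 0.947, and 0 of 21 pairs passed by the exact permutation test within groups, with 6 pairs at an unadjusted p under 0.05 and a smallest adjusted p of 0.0583. Malat1 and Neat1 had r = -0.516 as deviations. Gas5 passed with no other member, with r from -0.336 to 0.637 over 8 libraries.

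**Figure D5:**
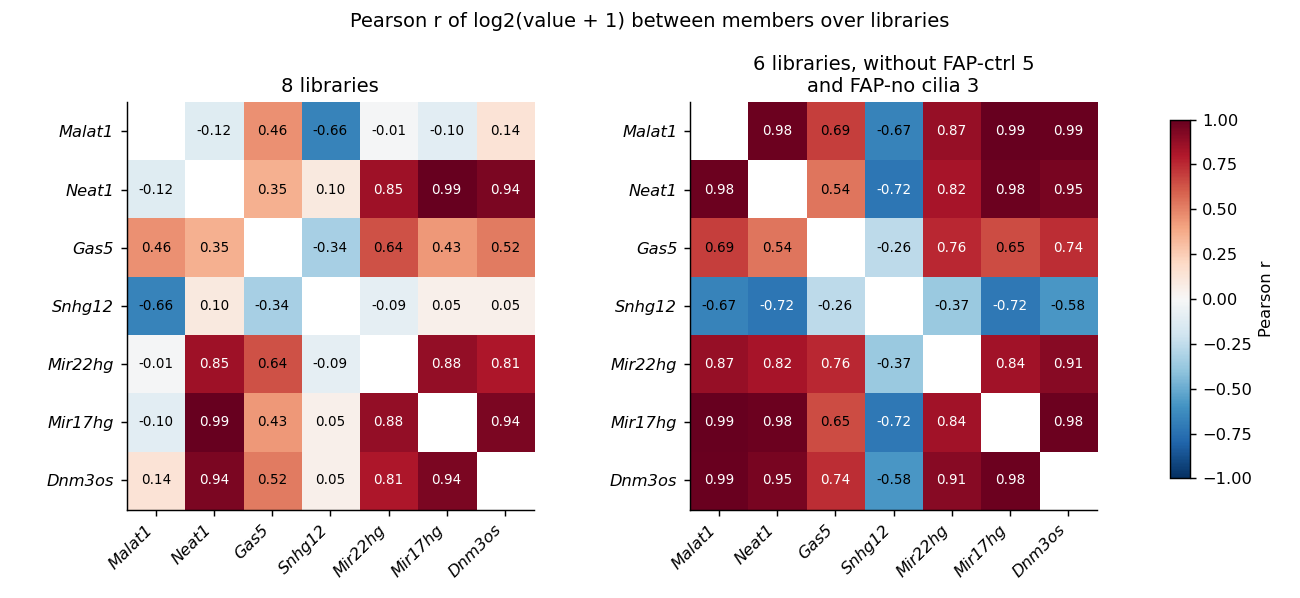
Pearson r of log2(value + 1) between the 7 members over all 8 libraries (left) and over the 6 without FAP-ctrl 5 and FAP-no cilia 3 (right), from -1 in blue to 1 in red. The row of Malat1 goes from -0.12 with Neat1 on the left to 0.98 on the right, whereas Neat1, Mir17hg and Dnm3os are at 0.94 or more in both.

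The genes most like 4 members over the 8 libraries were found by Pearson r among 9720 genes with a mean of at least 100, and all points share the same 8 libraries. Those most like Malat1 included Baz2b, Ank2, Cpeb4 and Pcf11. Baz2b, a bromodomain gene, had r = 0.977, and its values ran from 1484 to 1929. Pcf11, a factor of transcript cleavage and termination, had r = 0.963. The highest library held 1.44 times the lowest for Pcf11, against 5.03 times for Malat1.

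Most like Neat1 were Ovca2, Zfp157, Zfp113, Ppp1r10 and Zfp408, of which 3 are zinc finger genes. Ovca2 had r = 0.975 and stood at 210, 216, 282, 252 and 347 in FAP-ctrl, against 190, 192 and 316 in FAP-no cilia. Ppp1r10, a regulatory subunit of protein phosphatase 1 in the nucleus, had r = 0.957, and FAP-ctrl 5 was highest at 3864. Without FAP-ctrl 5 and FAP-no cilia 3, r with Neat1 was 0.945 for Ovca2 and 0.923 for Ppp1r10.

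Dnm3os was most like Rsrp1, Abcc9, Zscan26, Nhsl1 and Zfp157, the last being also on the list of Neat1. Rsrp1 had r = 0.992 and stood at 5223, 4977, 6545, 5990 and 8680 in FAP-ctrl, against 2631, 2950 and 8443 in FAP-no cilia, the same libraries high and low as for Dnm3os. Abcc9, a subunit of a potassium channel, had r = 0.987, and it was higher in FAP-no cilia 3, at 292, than in FAP-ctrl 5, at 266. Gas5, which varied little, was most like Ccdc28b (r = 0.958), Plagl1, Tm7sf3, Pygo1 and Mras. Plagl1, an imprinted zinc finger gene, stood at 2669 to 5221 in FAP-ctrl, against 1812 to 2269 in FAP-no cilia, a far wider span than that of Gas5.

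The proteins that bind these RNAs were described from lists. Of 26 paraspeckle protein genes, all tested, FAP-no cilia had 13 higher and 13 lower, and the median log2 difference was 0.0074 beside 0.0077 over all genes, and 0 passed by limma-trend. Hnrnph1, an RNA-binding protein, stood at 16066 to 19746 in FAP-ctrl, against 13273 to 15893 in FAP-no cilia with no overlap (log2 difference -0.33, adjusted p = 0.299). Pspc1, a core paraspeckle protein, stood at 789 to 933 and 968 to 1155, with no overlap in the other direction, where 3.62% of all genes did not overlap.

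Of 23 nuclear speckle and SR protein genes, the splicing factors that share speckles with Malat1, FAP-no cilia had 17 lower and 6 higher, where 48.5% of all genes were lower. The median was -0.11 and 0 passed by limma-trend. The groups did not overlap, lower, for 3 of the 23 over all libraries (3.69% of all genes) and for 11 of the 23 without FAP-ctrl 5 and FAP-no cilia 3 (12.1% of all genes). Srsf11, an SR-type splicing factor, stood at 6248, 5732, 6570, 6823 and 6210 in FAP-ctrl, against 4483, 4262 and 5414 in FAP-no cilia (log2 difference -0.43, adjusted p = 0.195). Srrm2 and Son, large proteins that form the core of speckles, stood at 13668 to 16924 and 12983 to 16543 in FAP-ctrl, against 11079 to 12210 and 11413 to 12400 in FAP-no cilia. Srsf11, Srrm2 and Son were the 3 that were lower with no overlap over all libraries, and DESeq2 called 2 genes of the list.

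Around the snoRNA hosts, 0 genes of the lists passed by limma-trend, and DESeq2 called 1, a protein-coding host. Of 18 other snoRNA host RNAs, 10 were found and 6 tested, with 5 lower and 1 higher. Zfas1, a host of C/D box snoRNAs, stood at 836 to 1184 in FAP-ctrl, against 782 to 996 in FAP-no cilia. Of 20 protein-coding snoRNA hosts, 15 were higher and 5 lower (median 0.05), and Hspa8, a chaperone of the heat shock protein family, stood at 24205 to 27804 and 31536 to 41305 with no overlap. Among 20 messages of the translation machinery with a 5′ terminal oligopyrimidine tract, a class to which Gas5 also belongs, 13 were higher and 7 lower (median 0.06). Of 14 factors of nonsense-mediated decay, 6 were higher and 8 lower (median -0.01).

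Of 20 MYC target genes, Myc itself among them, listed because MYC is known to activate Mir17hg, 15 were higher and 5 lower (median 0.04). Over all genes, 7610 of the 14768 tested were higher. None of the 20 passed by limma-trend, and a part of MYC in the Mir17hg values was not tested. Of 20 genes listed as p53 targets, Trp53 itself among them, 19 were higher and 1 lower (median 0.26), beside the 7610 of 14768 over all genes. In a list of 10 nuclear-encoded housekeeping genes, all 10 were higher as well (median 0.15), so this direction was not particular to the p53 list. Of the 20, 0 passed by limma-trend and 1 by DESeq2. Higher with no overlap over all libraries were 2 of the 20, where 3.62% of all genes were. Without FAP-ctrl 5 and FAP-no cilia 3 it was 4 of the 20, where 11.5% of all genes were. Cdkn1a, the p53-induced inhibitor of the cell cycle, stood at 2566, 3250, 3187, 2520 and 2265 in FAP-ctrl, against 5633, 4156 and 3371 in FAP-no cilia with no overlap (log2 difference 0.65, adjusted p = 0.236). The 21 further lncRNAs of the list gave 9 found and 5 tested, all 5 of them lower. Tug1, a long intergenic RNA, stood at 4247 to 5437 and 3730 to 4759, and Ftx, an lncRNA of the X inactivation centre, was highest in FAP-ctrl 5 at 258 and in FAP-no cilia 3 at 242, in the order seen for Neat1. Airn, the imprinted antisense RNA of Igf2r, stood at 166 to 218 in FAP-ctrl, against 124 to 160 in FAP-no cilia, with no overlap (log2 difference -0.45, adjusted p = 0.334).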

How the data were processed

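Per the labels, purified FAPs gave total RNA for stranded libraries read single-end. Per the series design text and the submitters' processing notes, the authors aligned reads to GRCm38 with STAR and normalized with DESeq. The deposited values are a signal (reads per gene over a size factor) for 37991 genes in each of 8 libraries. All values (100%) were whole multiples of 1 read within 0.01 reads, so reads were recovered, and 1 read was worth 0.610 to 1.79 normalized reads. No source used here gives the counting tool or its use of strand, so Dnm3os and Dnm3 may not be fully separable.

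Symbols came from GENCODE M21 (32919 identifiers matched), miRNAs and promoters from RefSeq; 6 of the 7 analysed members have a promoter entry, and that of Mir17hg lies within the gene. Genes that reached 10 in 3 or more libraries (14768) were compared by limma-trend on log2(value + 1), which understates changes of low genes, adjusted by Benjamini-Hochberg, with a threshold of 0.05. The unit called for the test of normalized values, and edgeR, DESeq2 and limma-voom on the recovered reads were alternatives, beside other pseudocounts, filters, scalings, a replicate block, and libraries left out. The fits were tested on simulated data. Replicates of 1 group differed beyond sampling noise (chi-square over genes), and as nothing says they are separate animals, p-values measure the spread between these libraries, which may be technical. Named genes were the members, up to 4 genes of each list with the smallest p, the 5 genes most like Malat1, Neat1, Gas5 and Dnm3os, the RNAs inside the members, their neighbours and Ift88; 2 genes that this rule names are not reported here. The members and lists were chosen with earlier results of these data known. Tools were DESeq2 1.42.0, edgeR 4.0.16, limma 3.58.1 and R 4.3.3, with scipy 1.17.1, pandas 2.3.3, numpy 2.4.6 and Python 3.11.15.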

Additional observations from a re-analysis of the deposited data

Results flagged for a closer look

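In 7 genes the highest FAP-ctrl library, each time FAP-ctrl 5, lay far from the other 4 by the gap to its nearest neighbour relative to the range (Dixon's test). These are 4 members, Neat1 (6568), Mir22hg (1707), Mir17hg (505) and Dnm3os (7774), and 3 genes named for their likeness to Neat1 or Dnm3os, Nhsl1 (571), Ppp1r10 (3864) and Zfp113 (209), all as normalized read counts. As these 3 genes were chosen for following members, they are not separate evidence. Chance marks about 1 in 20 groups in this way, and the genes share 1 library, which also had the lowest mitochondrial share of its group. The share of all genes marked in this way is not given here. The flags therefore do not show that members stand out in this library more often than other genes.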

How the results depend on the processing

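The direction of all 7 members held in all 23 alternatives run for each, 6 lower and Snhg12 higher. The log2 difference ran from -1.62 to -1.02 for Malat1, from -1.73 to -0.044 for Neat1, from -1.04 to -0.097 for Mir17hg, from 0.066 to 0.28 for Snhg12 and from -1.95 to -0.58 for Dnm3os. The number of members called was 0 in the main test and 1 without FAP-ctrl 5 and FAP-no cilia 3 (Dnm3os) and 1 in male libraries only (Malat1), both chosen after seeing the data. Over all genes limma-trend called 1 gene, edgeR 0 with TMM factors (1480 at an unadjusted p under 0.05) and 0 with RLE factors (1482), limma-voom 0 (1392) and DESeq2 173. It was 5 without FAP-ctrl 5 and FAP-no cilia 3, 16 with low mitochondrial share as a term, and 1 to 3 with 1 library left out. The cause was not tested. With the replicate block, 1 gene and 0 members were called. Same-numbered libraries had correlations of deviations of -0.070, 0.14 and 0.036, within the range of -0.26 to 0.35 of differently numbered ones. Whether a shared number marks a shared litter, day or batch cannot be told from these values. The 6 correlated pairs of members became 3 by Spearman rho, 0 as deviations from group means and 3 without the 2 libraries farthest from the median, and were 3 to 6 with 1 library left out, 3 without FAP-ctrl 2, FAP-ctrl 5, FAP-no cilia 1 or FAP-no cilia 2. The level of Malat1 was 26.5 times that of Mir17hg per kilobase of exon and 28.9 times per kilobase of gene span. Per kilobase of the longest transcript, Gas5 was the highest member (1907, against 1661 for Malat1), at 30.4 times Mir17hg. Sex as a covariate had been planned for the case that both sexes occur in both groups, which was not met, and was run as an added alternative. As all FAP-no cilia libraries were male, its log2 differences equal those of the male libraries and are not a separate check. Depth limits the low values, 1 read being worth 1.79 normalized reads in the smallest library.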
